A study of Mus musculus with 6 samples.

Results

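The 40 genes described here encode the machinery of autophagy, chosen by name from the known steps of the process and found by symbol in the tables, where all 40 had a row among 16266 genes. They were followed in mouse bone marrow-derived macrophages, which are macrophages grown out of marrow in culture, and every culture had been exposed to lipopolysaccharide (LPS), the bacterial membrane lipid sensed by TLR4, for 24 h. One group was labelled knockout (KO) for Capns1, the small regulatory subunit of calpains 1 and 2, and the other wild type (WT), with 3 libraries in each. The series title describes a deletion in myeloid cells. The driver of that deletion, the mouse strain and age, and the origin of the replicates (1 animal or several) were not given in the sources used here. The p-values below thus cover the spread among these 6 libraries alone, and that spread may be technical. No culture without LPS was analysed here. The comparison asks whether macrophages without Capns1 carry different amounts of the autophagy transcripts after LPS.

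Autophagy encloses cytoplasm in a double membrane, the autophagosome, and delivers it to the lysosome. A kinase complex around ULK1 starts the process, and a lipid kinase complex around BECN1 marks the membrane with phosphatidylinositol 3-phosphate. WIPI proteins, the lipid transfer proteins ATG2 and the scramblase ATG9 then supply membrane, and a pair of ubiquitin-like conjugation systems attaches the ATG8 proteins (the LC3 and GABARAP families) to it. Cargo receptors bind ATG8 proteins and their load together, and SNARE and tethering proteins fuse the finished vesicle with the lysosome. In macrophages the pathway clears bacteria and damaged mitochondria and restrains inflammasome activity. ATG5 protein is a known calpain substrate, and RNA measurements do not report on that cleavage.

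The labels were checked on Capns1. It had 17055, 18934 and 21331 counts in WT replicates 1 to 3 and 335, 370 and 298 counts in KO replicates 1 to 3. The genotype field gives the KO samples 3 different Capns numbers, but the loss of Capns1 was of similar size in all 3 (log2 fold change -5.73 ± 0.12 SE, adjusted p = 1.77e-10 in edgeR). Total counts ran from 32631163 to 40913819 per library. The 8 listed macrophage markers were all detected and summed to 35311 to 42660 CPM (counts scaled to a common library total) in WT and 33629 to 38751 CPM in KO libraries. Of these 8, 1 was called lower and 0 higher in KO. Over all genes tested, 6.21% were called lower and 8.44% higher, the shares to set beside this and the following marker counts. Csf1r had 2711 to 3527 CPM in WT and 2247 to 2656 CPM in KO, and Cd14 761 to 864 and 621 to 666 CPM. For Adgre1, Cd68, Itgam, Mertk, Lyz2 and Fcgr1 the groups overlapped. Adgre1 had 3075 to 3703 CPM in WT and 3373 to 4319 CPM in KO. Of the 12 listed fibroblast and stromal markers, 11 were tested and 6 called higher, and their sum was 419 to 555 CPM in KO against 194 to 254 CPM in WT. Neutrophil markers summed to 1407 to 1745 CPM in WT and 1257 to 1612 CPM in KO (2 of 9 called higher, 3 lower), and erythroid and megakaryocyte markers to 227 to 290 and 317 to 372 CPM (1 of 4 tested called higher). Endothelial markers summed to 37.3 to 51.1 and 32.1 to 46.8 CPM (1 of 5 called lower). T cell (7.0 to 11.3 and 6.85 to 8.30 CPM) and dendritic cell sums (0.855 to 1.21 and 0.806 to 0.880 CPM) were low, with Cd3d and Cd3g at or near 0. The part of these other cell types in the results was not tested. In bulk RNA, fewer cells of a type and less RNA per cell cannot be told apart.

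Within the groups, WT replicate 3 and KO replicate 2 lay away from their partners. On the second principal component of all tested genes, which held 15.9% of the variance, WT libraries scored 8.21, 12.4 and -23.2 and KO libraries -12.6, 25.5 and -10.4 in replicate order. Several autophagy genes departed from the other libraries of their group in these 2, and the values of some of those genes are also given with both removed. With both removed, the 2 remaining WT and 2 remaining KO libraries lie on opposite sides of that component. Genotype and that component then cannot be told apart, a limit on every value and call below from that fit.

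All 40 autophagy genes were detected in every library, with 130 to 23578 counts per gene and library. Levels are compared between genes as FPKM, the count per kilobase of gene scaled to the library total. Gabarap, which encodes a small ATG8 protein, led the order with 483 ± 42.0 FPKM in WT libraries and 512 ± 46.6 FPKM in KO (mean ± SD, n = 3). Rab7, the GTPase of late endosomes that prepares them for fusion, came next at 181 ± 9.42 and 171 ± 9.37 FPKM. Sqstm1, the cargo receptor p62, followed at 93.0 ± 1.27 and 92.3 ± 3.28 FPKM, and Map1lc3b, the main LC3 gene, at 69.4 ± 3.60 and 60.7 ± 2.44 FPKM. These 4 genes did not overlap each other in any library. Gabarapl2 (48.7 ± 4.17 FPKM in WT) and Gabarapl1 (37.1 ± 1.73 FPKM in WT) held ranks 5 and 6 in both groups. The ranks of Becn1 (34.4 ± 2.04 FPKM in WT) and Map1lc3a (31.2 ± 5.09 FPKM in WT), 7 and 8 in WT, were exchanged in KO, and their WT libraries overlapped. At the low end, 9 genes stayed under 5 FPKM in every library. Among them, Rb1cc1, the scaffold FIP200 of the ULK complex, had 1.79 ± 0.232 FPKM in WT. Atg10, the enzyme that joins ATG12 to ATG5, had 1.89 ± 0.275 FPKM. Pik3c3, the lipid kinase VPS34 itself, had 2.32 ± 0.0436 FPKM. These 3 low levels lay near the middle of all detected genes, at the 48.2, 48.8 and 51.2 percentiles, while Gabarap lay at the 99.2 percentile.

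**Figure D1:**
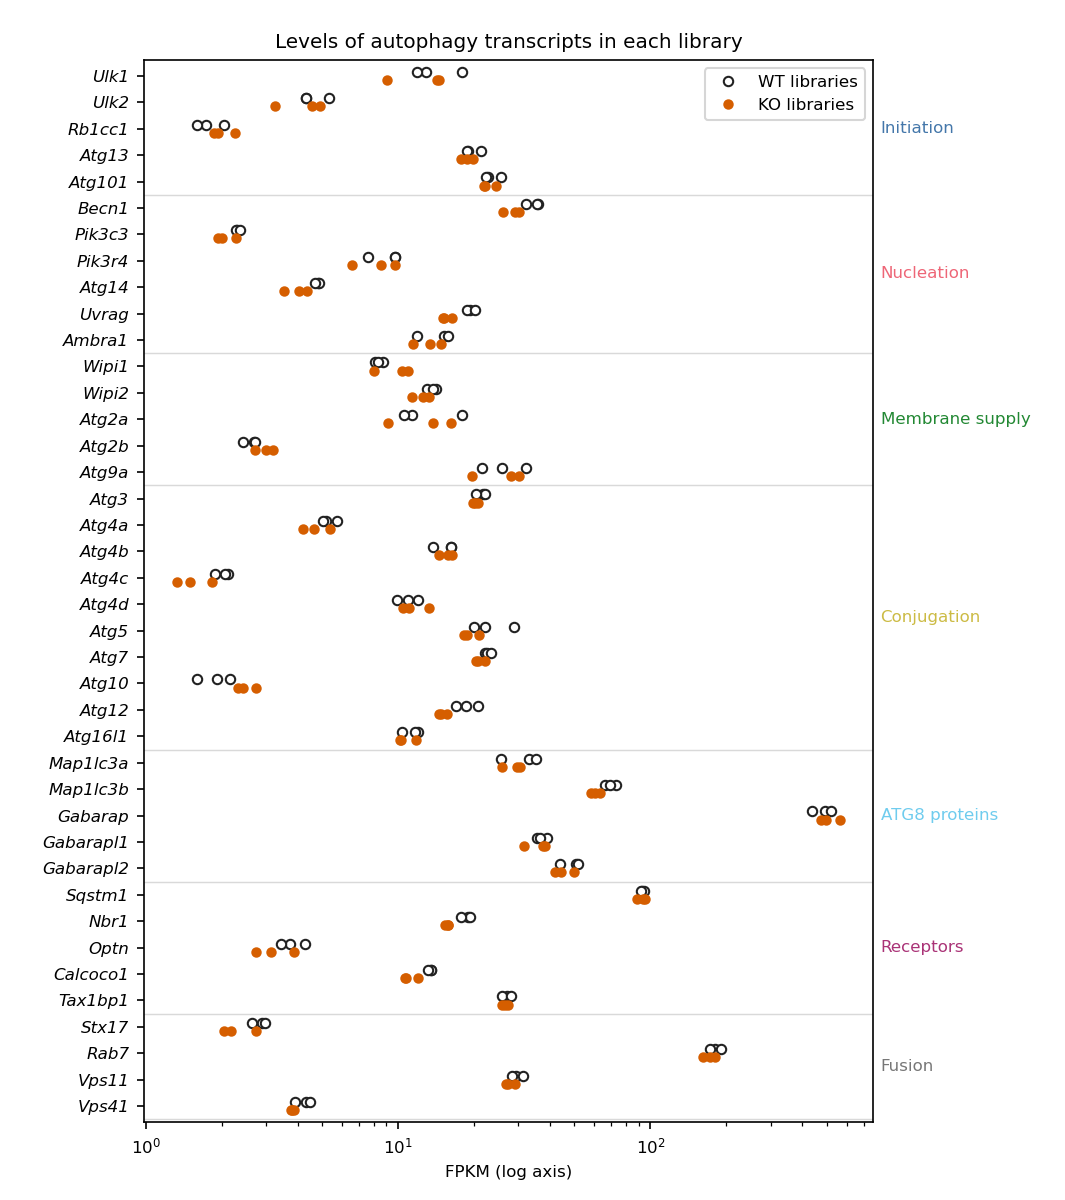
FPKM of the 40 autophagy genes on a log axis, with open points for the 3 WT libraries and filled points for the 3 KO libraries, grouped by step. Levels run from Atg4c, at 1.33 FPKM in its lowest library, to Gabarap, at 565 FPKM in its highest, and for most genes the KO points lie at or slightly left of the WT points.

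Between KO and WT, 1 of the 40 genes was called lower and 0 were called higher, where called means an adjusted p under 0.05 in edgeR over all 12219 genes tested. Over those genes 6.21% were called lower and 8.44% higher. All 40 members passed the filter on low counts. The called gene was Uvrag, a subunit of the endosomal form of the BECN1 lipid kinase complex. Fold differences were small throughout, from -0.41 for Atg4c to 0.38 for Atg10 on the log2 scale, with a median of -0.13 over the 40 genes and of -0.011 over all genes tested. Of the 40 estimates, 33 (82.5%) lay below 0, as did 51.7% of all genes tested. At an unadjusted p under 0.05, 10 members (25.0%) were lower and 0 higher, against 13.5% and 14.7% of all genes. Every KO library lay below every WT library in FPKM for 11 members (27.5%) and above for 1, against 15.5% and 18.2% of all genes. The members were measured in the same 6 libraries and are not independent, so these shares are descriptions without a test.

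The intervals of the fold changes, like the p-values, cover the spread among these 6 libraries alone. The 95% interval of the fold change lay within 1.5-fold in either direction for 35 of the 40 genes and within 2-fold for all 40. The 5 whose interval reached past 1.5-fold were Ulk1, Atg4c, Atg5, Stx17 and Atg10. Without WT replicate 1, WT replicate 2, KO replicate 1 or KO replicate 3, no member was called, and without KO replicate 2 there were 2, Uvrag and Atg12. Without WT replicate 3 the single call was Atg12. In these 6 fits 2.88% to 5.99% of all genes were called lower. Without both WT replicate 3 and KO replicate 2, 8 members were called lower and 1 higher (12.3% and 13.7% of all genes in that fit), among libraries split by genotype and by that component alike.

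**Figure D2:**
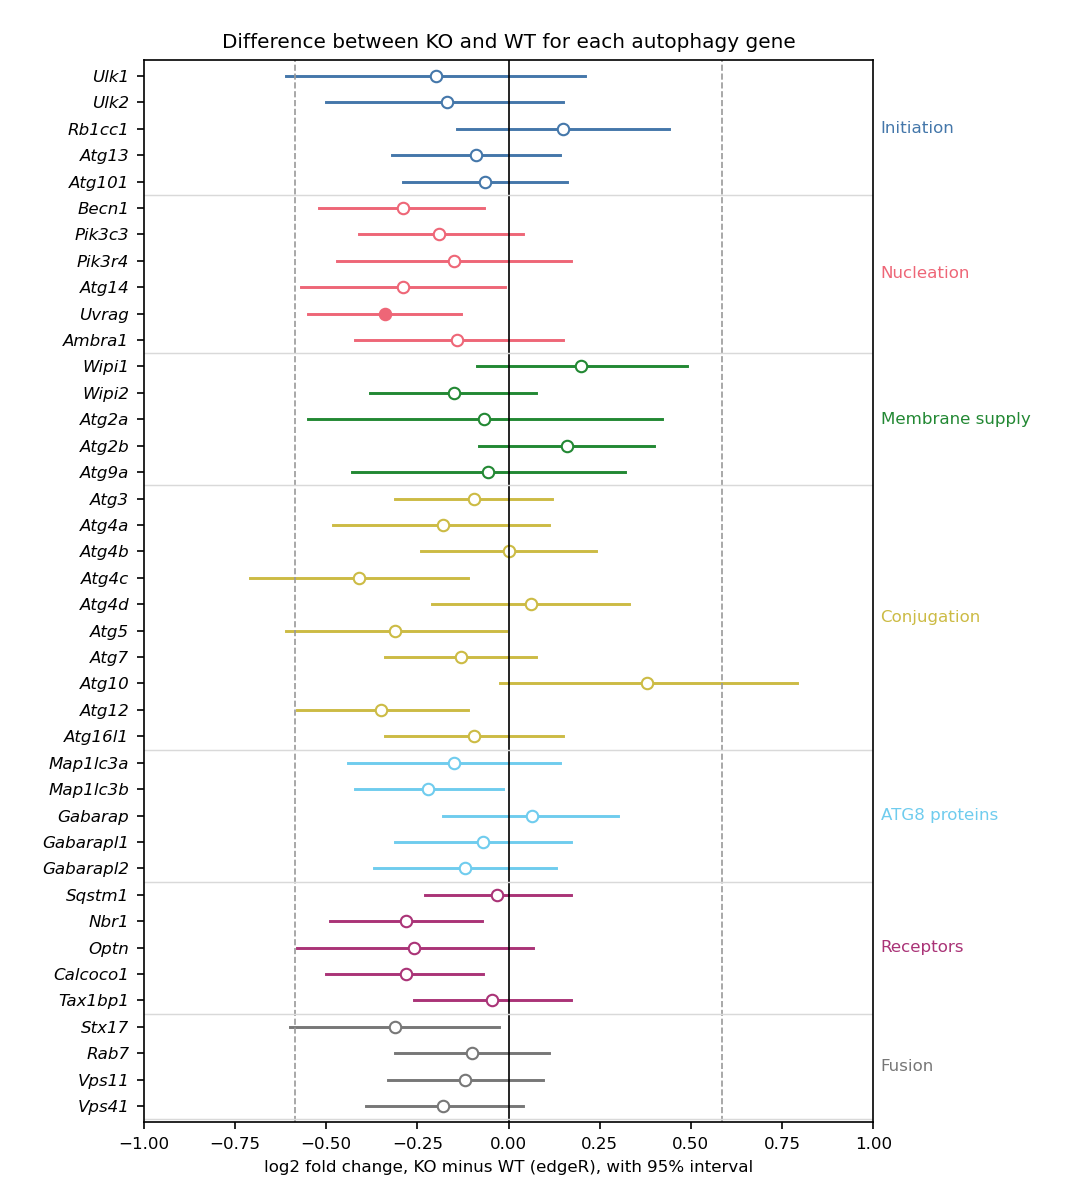
Log2 fold change, KO minus WT, from edgeR for each of the 40 autophagy genes, with 95% intervals, coloured by step. The filled point is the 1 called gene, Uvrag, open points are genes not called, and dashed lines mark a 1.5-fold difference in either direction. Most points lie left of 0 and 35 intervals stay between the dashed lines.

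In the initiation complex, 0 of 5 genes were called (median log2 fold change -0.090). Ulk1, the kinase that starts autophagosome formation, had 12.9, 11.9 and 18.0 FPKM in WT replicates 1 to 3 and 14.3, 9.08 and 14.6 FPKM in KO replicates 1 to 3. The groups overlapped, and the highest WT value and the lowest KO value came from the 2 libraries that stood apart. Its log2 fold change was -0.20 ± 0.19 SE (95% interval -0.61 to 0.21, adjusted p = 0.537). Removing WT replicate 3 gave 0.015, removing KO replicate 2 gave -0.016 and removing both gave 0.18, none of them called. The related kinase Ulk2 gave -0.17 (adjusted p = 0.505). The adaptor subunits Atg13 (-0.090) and Atg101 (-0.065) had narrower intervals, -0.32 to 0.14 and -0.29 to 0.16, and Rb1cc1 gave 0.15 (-0.14 to 0.44).

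The nucleation complex held the called gene. All 6 estimates were below 0, between -0.34 and -0.14, and for 4 of the 6 genes every KO library lay below every WT library. Over all genes tested, 51.7% of estimates lay below 0 and 15.5% had every KO library below every WT library. Uvrag (chromosome 7, 98886742 to 99141167, GRCm38) had 19.2, 18.8 and 20.2 FPKM in WT and 16.4, 15.1 and 15.2 FPKM in KO replicates 1 to 3. The groups were well separated and the spread within them was small, at the 4.48 percentile of all tested genes. The log2 fold change of Uvrag was -0.34 ± 0.096 SE, or 0.790 of the WT level (95% interval 0.682 to 0.914, adjusted p = 0.0346, edgeR). That call was lost in 5 of the 6 fits that left out 1 library, with adjusted p of 0.0697 to 0.130, and stayed at 0.0496 without KO replicate 2. It was kept under the other scalings, filters and tools. It was also kept with both divergent libraries removed (adjusted p = 0.0231), a fit in which genotype and the second principal component cannot be told apart. Uvrag shares 19.2% of its 32-base words with other genes, mainly with Gm45187 on the opposite strand. Whether reads were counted by strand was not stated, so whether Uvrag counts include reads of Gm45187 there is not known. The same holds for the other members with an opposite-strand partner. Among them are Sqstm1 (16.3% of words shared, mainly with Mrnip), Gabarapl1 (25.1%, 1700101I11Rik) and Atg4d (16.4%, Kri1).

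Becn1, the scaffold of the complex, had 35.8, 35.4 and 32.1 FPKM in WT and 30.2, 29.2 and 26.0 FPKM in KO replicates 1 to 3. All KO values were below all WT values, by a smaller margin than the spread within either group. The log2 fold change of Becn1 was -0.29 ± 0.10 SE (adjusted p = 0.0824, not called), and with both divergent libraries removed it was called at -0.38 (adjusted p = 0.00845). Becn1 shares 39.8% of its words with other genes, mainly Cntd1 on the opposite strand. Atg14, the subunit that directs the complex to autophagosome formation, had 4.84, 4.87 and 4.67 FPKM in WT and 3.53, 4.37 and 4.04 FPKM in KO replicates 1 to 3. Its groups did not overlap, and the log2 fold change of Atg14 was -0.29 ± 0.13 SE (adjusted p = 0.162), or -0.40 (adjusted p = 0.0433, called) with both divergent libraries removed. The kinase Pik3c3 gave -0.19 (adjusted p = 0.272), its regulatory subunit Pik3r4 -0.15 (adjusted p = 0.562) and the BECN1 partner Ambra1 -0.14 (adjusted p = 0.553). For Pik3r4 and Ambra1, WT replicate 2 and KO replicate 2 were the lowest library of their groups and the groups overlapped.

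Among membrane supply genes, 0 of 5 were called (median -0.055). The phosphoinositide binder Wipi1 gave 0.20 ± 0.13 SE (adjusted p = 0.357). It had 11.0 and 10.4 FPKM in KO replicates 1 and 3, but 8.03 FPKM in KO replicate 2, below every WT library. With both divergent libraries removed, Wipi1 gave 0.31 (adjusted p = 0.0906, not called). Its relative Wipi2, which recruits ATG16L1, gave -0.15 (adjusted p = 0.382). Atg2a, a lipid transfer protein that bridges the endoplasmic reticulum and the growing membrane, had 11.4, 10.6 and 18.0 FPKM in WT and 16.2, 9.11 and 13.7 FPKM in KO replicates 1 to 3. The scramblase gene Atg9a (32.2% of its 32-base words also occur elsewhere, mainly in Gm29253) had 25.8, 21.5 and 32.1 FPKM in WT and 30.1, 19.7 and 28.1 FPKM in KO replicates 1 to 3. Both genes were highest in WT replicate 3 and lowest in KO replicate 2, and their groups overlapped almost fully. Their log2 fold changes were -0.066 (95% interval -0.55 to 0.42) and -0.055 (-0.43 to 0.32). Without both libraries that stood apart the sign turned, to 0.41 for Atg2a (adjusted p = 0.00703) and 0.26 for Atg9a (adjusted p = 0.0651). Atg2b, which has the same task as Atg2a, gave 0.16 ± 0.11 SE (adjusted p = 0.378).

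The conjugation step had 10 genes, of which 0 were called. At an unadjusted p under 0.05 in edgeR, 3 were lower in KO, as were 13.5% of all genes tested. Atg12, the ubiquitin-like protein that is joined to ATG5, had 18.6, 20.7 and 17.0 FPKM in WT and 14.8, 15.6 and 14.5 FPKM in KO replicates 1 to 3. The groups did not overlap, and the log2 fold change of -0.35 ± 0.11 SE lay just outside the threshold (adjusted p = 0.0537), where Uvrag at 0.0346 lay just inside. Atg12 was called in 6 of 19 alternative fits, among them DESeq2 (adjusted p = 0.0344) and the fits without WT replicate 3 (0.0413) or KO replicate 2 (0.0420). Its partner Atg5 had 22.1, 28.9 and 20.0 FPKM in WT and 18.8, 21.0 and 18.2 FPKM in KO replicates 1 to 3. The groups overlapped and WT replicate 2 was well above the other 5 libraries. The log2 fold change of Atg5 was -0.31 ± 0.14 SE (adjusted p = 0.167), and it ranged from -0.14 (adjusted p = 0.566) when WT replicate 2 was removed to -0.50 (adjusted p = 0.00435, called) when both divergent libraries were removed. Atg16l1, which places the ATG12 and ATG5 conjugate on the membrane, gave -0.095 (adjusted p = 0.645).

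Atg10, at 1.92, 2.15 and 1.60 FPKM in WT and 2.73, 2.43 and 2.33 FPKM in KO replicates 1 to 3, was the single member whose KO libraries all lay above the WT libraries. The log2 fold change of Atg10 was 0.38 ± 0.18 SE (95% interval -0.023 to 0.79, adjusted p = 0.203). Atg7, the activating enzyme of both conjugation systems, had 22.1, 22.5 and 23.3 FPKM in WT and 22.1, 20.3 and 20.7 FPKM in KO replicates 1 to 3. Its groups met at 22.1 FPKM, where KO replicate 1 lay below WT replicate 1 only beyond the printed digits, and the difference of -0.13 ± 0.094 SE was not called (95% interval -0.34 to 0.075, adjusted p = 0.405). Atg3, the enzyme that transfers ATG8 proteins to lipid, gave -0.096 (-0.31 to 0.12) and had the smallest spread within groups of the 40 genes, at the 1.97 percentile of all tested genes. Of the 4 ATG4 proteases, which trim ATG8 proteins before conjugation and release them afterwards, Atg4c had 1.89, 2.12 and 2.07 FPKM in WT and 1.83, 1.33 and 1.50 FPKM in KO replicates 1 to 3. These groups were separated by a narrow gap, and the log2 fold change of Atg4c was -0.41 ± 0.14 SE (adjusted p = 0.0688). Atg4b (0.00050, 95% interval -0.24 to 0.24), Atg4d (0.061) and Atg4a (-0.18) were not called, and Atg4a shares 60.2% of its words with other genes, mainly its pseudogene Atg4a-ps.

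**Figure D3:**
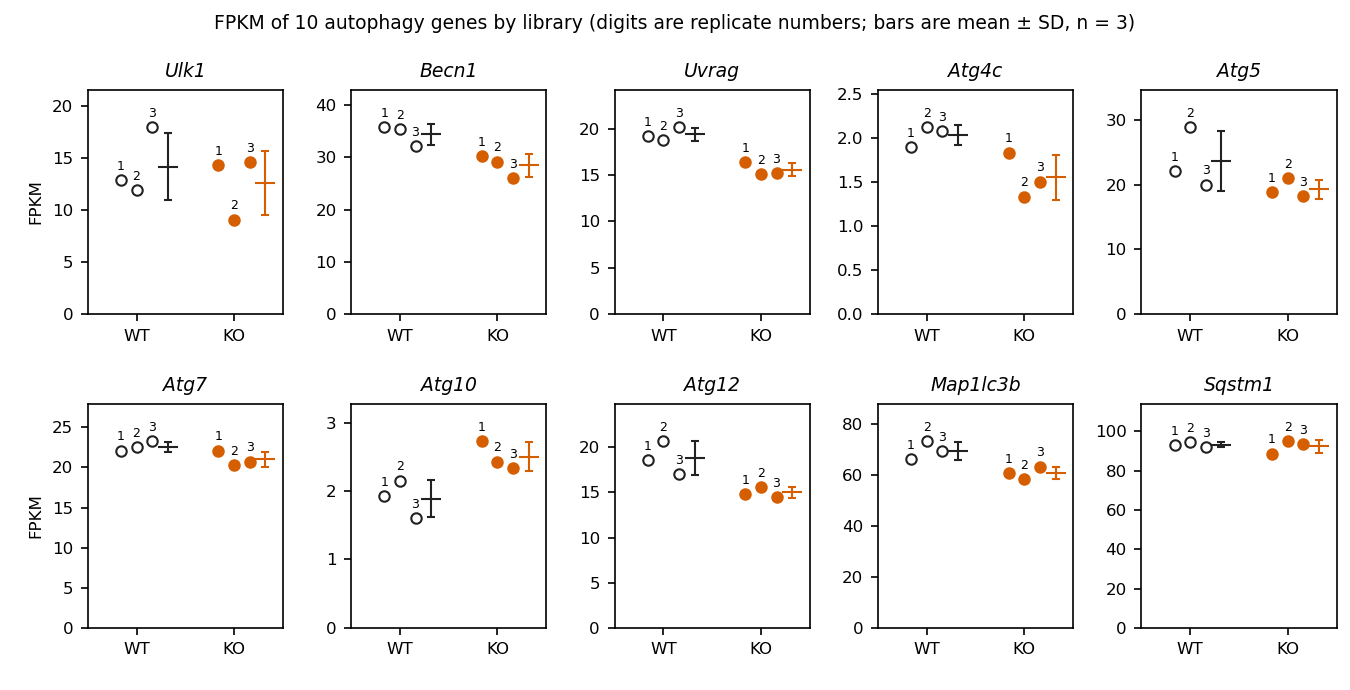
FPKM in each library for 10 autophagy genes, with open points for WT, filled points for KO, digits for the replicate number and bars for mean ± SD (n = 3), on axes that start at 0. WT and KO points are clearly apart for Uvrag and, by less than the WT SD, for Atg12. They overlap for Ulk1, Atg5 and Sqstm1, and for Ulk1 the extremes are WT replicate 3 and KO replicate 2.

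Of the 5 ATG8 genes, 0 were called (median log2 fold change -0.12). Map1lc3b had 66.0, 73.2 and 69.1 FPKM in WT and 60.5, 58.3 and 63.2 FPKM in KO replicates 1 to 3. Every KO library was below every WT library, with a log2 fold change of -0.22 ± 0.093 SE (95% interval -0.42 to -0.014, adjusted p = 0.150), and no alternative fit called it. Gabarap had 493, 520 and 438 FPKM in WT and 476, 565 and 496 FPKM in KO replicates 1 to 3, which overlap (log2 fold change 0.064, 95% interval -0.18 to 0.30). Per length, Gabarap made up 72.1% ± 1.63 of the summed FPKM of the 5 ATG8 genes in the WT libraries and 75.0% ± 1.56 in KO (SD, n = 3). Map1lc3b made up 10.4% ± 0.641 in WT and 8.93% ± 0.887 in KO, with 11.1% in its highest and 7.91% in its lowest library, again WT replicate 3 and KO replicate 2. Gabarapl2 (-0.12), Gabarapl1 (-0.069) and Map1lc3a (-0.15) had adjusted p of 0.515 to 0.745.

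Of the 5 cargo receptors, 0 were called, and all 5 estimates were below 0, as were 51.7% over all genes tested. Sqstm1 (p62), whose protein is itself degraded by autophagy, had 92.8, 94.3 and 91.8 FPKM in WT and 88.6, 95.0 and 93.3 FPKM in KO replicates 1 to 3. The groups overlapped, and the interval of its log2 fold change, -0.23 to 0.17 around -0.032 ± 0.090 SE, was among the narrowest of the 40 genes. Nbr1, a receptor with a structure related to p62, had 19.0, 19.3 and 17.8 FPKM in WT and 15.8, 15.8 and 15.3 FPKM in KO replicates 1 to 3. Calcoco1, a receptor for endoplasmic reticulum and Golgi membranes, had 13.5, 13.5 and 13.2 FPKM in WT and 10.7, 10.8 and 12.0 FPKM in KO replicates 1 to 3. Neither gene overlapped between groups, and their log2 fold changes were each -0.28, with adjusted p of 0.0700 and 0.0759. Nbr1 was called in DESeq2 (adjusted p = 0.0403), and Calcoco1 with a GC trend removed (-0.35, adjusted p = 0.0377). With both divergent libraries removed, Nbr1 (-0.34, adjusted p = 0.00990) and Calcoco1 (-0.29, adjusted p = 0.0448) were both called. Optn, which binds damaged mitochondria and bacteria, gave -0.26 ± 0.15 SE (adjusted p = 0.290), and Tax1bp1, a receptor for protein aggregates, gave -0.044 (95% interval -0.26 to 0.17).

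In the fusion step, 0 of 4 genes were called. Stx17, the SNARE that autophagosomes acquire before fusion, had 2.89, 2.96 and 2.64 FPKM in WT and 2.17, 2.05 and 2.73 FPKM in KO replicates 1 to 3. The groups overlapped through KO replicate 3, and the log2 fold change of Stx17 was -0.31 ± 0.13 SE (adjusted p = 0.145). Vps41, a subunit of the HOPS tether, gave -0.18 ± 0.098 SE (adjusted p = 0.278) with groups that did not overlap, and Vps11, a core subunit of the same tether, gave -0.12 (adjusted p = 0.474). Rab7 gave -0.10 (95% interval -0.31 to 0.11).

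Sequence upstream of the transcription start was read for 33 of the 40 genes (RefSeq starts on GRCm38.p6, 250 bases upstream, 38 windows). Motifs were searched on both strands. The E-box CACGTG, the core of the sites bound by TFEB and its relatives, occurred in Atg3, Atg5 and Atg7, 3 of 33 genes, and in 6.02% of all 32851 windows. Its extended form TCACGTGA occurred in Atg3 and in 0.785% of all windows, and each such match also contains the E-box. The antioxidant response element core TGACNNNGC occurred in Atg13, Rab7, Tax1bp1 and Ulk2 and in 10.2% of all windows. The FOXO motif GTAAACA and the cAMP response element TGACGTCA occurred in 0 of the 33 genes and in 3.17% and 1.55% of all windows. The stretches of 3 genes are shown 5′ to 3′ with any motif in capitals: that of Uvrag because it was the called gene, and those of Atg5 and Atg3 because they hold an E-box while neither gene was called. RefSeq starts differ between transcripts, and the windows belong to 1 listed start each: the first bases upstream of the Uvrag start used lie inside the Uvrag gene as given above, and the Atg5 window reaches past the gene start at 44268322, so its E-box lies inside the annotated gene. The Uvrag stretch is chr7:99141145-99141394 (minus strand), the Atg5 stretch chr10:44268089-44268338 (plus strand), and the Atg3 stretch chr16:45158707-45158784 (plus strand), which is the part of its window outside annotated exons.
Uvrag: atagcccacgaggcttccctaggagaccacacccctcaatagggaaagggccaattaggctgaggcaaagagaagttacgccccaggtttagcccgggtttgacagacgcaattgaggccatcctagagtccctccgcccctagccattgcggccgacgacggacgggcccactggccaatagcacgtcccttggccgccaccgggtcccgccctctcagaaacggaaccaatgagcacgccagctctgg
Atg5: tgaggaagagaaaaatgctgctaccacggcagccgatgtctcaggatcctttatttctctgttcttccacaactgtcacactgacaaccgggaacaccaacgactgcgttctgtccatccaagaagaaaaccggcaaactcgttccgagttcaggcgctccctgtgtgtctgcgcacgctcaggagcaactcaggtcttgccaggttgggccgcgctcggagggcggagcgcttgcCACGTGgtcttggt
Atg3: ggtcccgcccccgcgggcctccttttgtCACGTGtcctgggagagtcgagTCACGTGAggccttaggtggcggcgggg
Uvrag, the called gene (log2 fold change -0.34), holds none of the 5 motifs in this window. Atg5, with an E-box, differed by -0.31 and Atg3, with 2 E-boxes, by -0.096, neither of them called. Whether the motifs bear on these levels was not tested. A match or its absence in these letters is a description of the sequence and not of factor binding.

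The 2 libraries that stood apart moved the autophagy genes unequally. In WT replicate 3, compared with the mean of the other WT libraries, Atg2a was higher by 0.73, Ulk1 by 0.55 and Atg9a by 0.46 in log2 CPM. In KO replicate 2, compared with the other KO libraries, the same 3 genes differed by -0.65, -0.61 and -0.51. Ulk2 (0.32 and -0.49) and Pik3r4 (0.20 and -0.42) followed the same course. Atg5 (-0.32 and 0.24), Gabarap (-0.19 and 0.27) and Gabarapl2 (-0.20 and 0.27) went the other way. With both libraries removed, the log2 fold changes were 0.087 for Ulk2, 0.040 for Pik3r4 and -0.098 for Gabarap, none called, and -0.28 for Gabarapl2 (adjusted p = 0.0389, called). Of the 40 genes, 33 departed in opposite directions in the 2 libraries. Across the 40 genes the 2 departures had Pearson's r of -0.81 and Spearman's rho of -0.70, and across all 12219 genes tested r of -0.37 and rho of -0.52. Transcript GC content, 60.0% in Atg2a and 44.6% in Atg5, had r of 0.60 with the departure of WT replicate 3 and of -0.40 with that of KO replicate 2 over the 40 genes, and 0.27 and -0.20 over 11996 tested genes with a value. These are correlations across genes that share the same libraries, and genes are not replicates. The 2 libraries were also singled out at opposite ends of a principal component of the same genes. Departures in opposite directions thus follow in part from that choice. The part of GC content in these departures was not tested.

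Spread within groups divided the members. Uvrag, Atg3, Atg7, Map1lc3b, Sqstm1, Nbr1 and Calcoco1 had a within-group SD under the 5th percentile of all tested genes, between 0.048 and 0.061 in log2 CPM. Atg2a (0.41), Ulk1 (0.34) and Atg9a (0.30) lay at the 87.6, 82.1 and 77.3 percentiles. The SE of the log2 fold change was 0.22 for Atg2a and 0.19 for Ulk1, against 0.090 for Sqstm1.

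**Figure D4:**
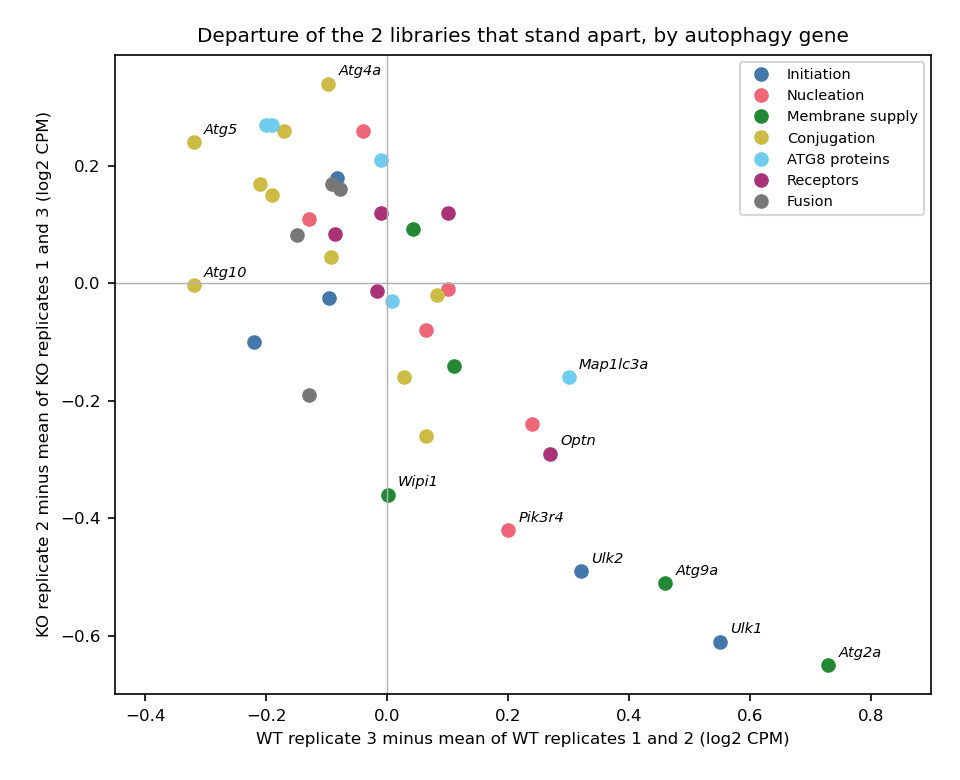
Each point is 1 of the 40 autophagy genes, coloured by step, with the difference of WT replicate 3 from the mean of WT replicates 1 and 2 on the x axis and that of KO replicate 2 from the mean of KO replicates 1 and 3 on the y axis, both in log2 CPM. Atg2a, Ulk1 and Atg9a lie at the lower right (0.73 and -0.65 for Atg2a), Atg5 and Atg4a at the upper left.

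Beyond the 40 members, 93 other genes of autophagy and its control were measured in 5 lists, and 2 of them were called higher and 10 lower, against 8.44% and 6.21% of all genes tested. Among 18 further cargo receptors and mitophagy genes, 4 were called lower. Ccpg1, a receptor for endoplasmic reticulum, had 13.0, 13.9 and 14.7 FPKM in WT and 10.8, 9.73 and 9.31 FPKM in KO replicates 1 to 3. The groups were separate, the log2 fold change of Ccpg1 was -0.50 ± 0.11 SE (adjusted p = 0.00878), and it was the single gene of these lists called in all 19 alternative fits. Ncoa4, the receptor that takes ferritin to the lysosome, had 18.9, 22.6 and 17.3 FPKM in WT and 13.0, 13.8 and 14.5 FPKM in KO replicates 1 to 3, again without overlap. The log2 fold change of Ncoa4 was -0.53 ± 0.12 SE (adjusted p = 0.00972), and 1 of 19 alternatives lost the call, that without KO replicate 1 (adjusted p = 0.0623). The endoplasmic reticulum receptors Retreg1 (-0.55, adjusted p = 0.0167) and Retreg3 (-0.38, adjusted p = 0.0224) were also called lower. Removal of WT replicate 2, KO replicate 1 or KO replicate 3 ended both calls, and that of WT replicate 1 the call of Retreg3 as well. In these fits adjusted p reached 0.0772 for Retreg1 and 0.106 for Retreg3. Some limma-trend fits also lost the call of Retreg1 (adjusted p of up to 0.0718). The fifth called gene of this list, named after its value was seen, was Phb2, a mitochondrial inner membrane protein that binds LC3. Phb2 was higher (0.31, adjusted p = 0.0477) and was not called in any fit that left out 1 library (up to 0.162). Nor was it called without the low-count filter (0.0536) or with a length trend removed (0.0877).

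Snap29, the SNARE that pairs with STX17, was the 1 of 13 further fusion genes called. It had 26.3, 27.1 and 24.2 FPKM in WT and 18.0, 20.2 and 17.5 FPKM in KO replicates 1 to 3, without overlap. The log2 fold change of Snap29 was -0.50 ± 0.11 SE (adjusted p = 0.00859), lost without KO replicate 1 (0.0548) or KO replicate 3 (0.0537). Of 19 further core genes, 2 were called lower, the ATG16L1 relative Atg16l2 (-0.66, adjusted p = 0.0296), at 1.49 ± 0.236 FPKM in WT and 0.962 ± 0.141 FPKM in KO, and Zfyve1 (-0.35, adjusted p = 0.0437), a phosphoinositide-binding protein used to mark sites of autophagosome formation. The call of Atg16l2 held in 13 of 19 alternatives. It failed when WT replicate 1, WT replicate 3, KO replicate 1 or KO replicate 3 was removed (up to 0.129) and in some limma-trend fits (up to 0.0591). For Zfyve1 the call held in 6 and failed on removal of any 1 library (up to 0.140). It also failed in the limma-trend fits (up to 0.0988) and under some other filters and scalings.

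Upstream of the machinery, 31 genes of mTORC1, AMPK and their stress inputs held 1 call in each direction (3.23% lower). Sesn1, a stress-induced inhibitor of mTORC1, had 35.9, 32.7 and 27.9 FPKM in WT and 21.1, 24.6 and 18.8 FPKM in KO replicates 1 to 3. All KO values were below all WT values (log2 fold change of Sesn1 -0.60 ± 0.13 SE, adjusted p = 0.0113), and removing WT replicate 1, KO replicate 1 or KO replicate 3 ended the call (up to 0.0652). Ddit4, another stress-induced inhibitor of mTORC1, was called in the opposite direction (0.41 ± 0.12 SE, adjusted p = 0.0365), a call that ended on removal of replicate 1 or 3 of either group (up to 0.148) or of a GC trend. The kinase Mtor itself stood at 7.94 ± 1.13 FPKM in WT and 7.96 ± 1.08 FPKM in KO (log2 fold change -0.023, 95% interval -0.31 to 0.27). Of 12 transcription factor and sensor genes, 2 (16.7%) were called lower, the autophagy gene repressor Zkscan3 (-0.57, adjusted p = 0.0193) and Mitf, a relative of TFEB (-0.39, adjusted p = 0.0263). The call of Zkscan3 ended when WT replicate 1, WT replicate 2, KO replicate 1 or KO replicate 3 was removed (up to 0.0929), and that of Mitf when any 1 library was (up to 0.0849), in the limma-trend fits (up to 0.0870) and with a GC trend removed (0.0656), so that it held in 9 of 19 alternatives. The activators Tfeb (-0.19, 95% interval -0.44 to 0.070) and Tfe3 (-0.018, -0.24 to 0.21) were not called.

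**Figure D5:**
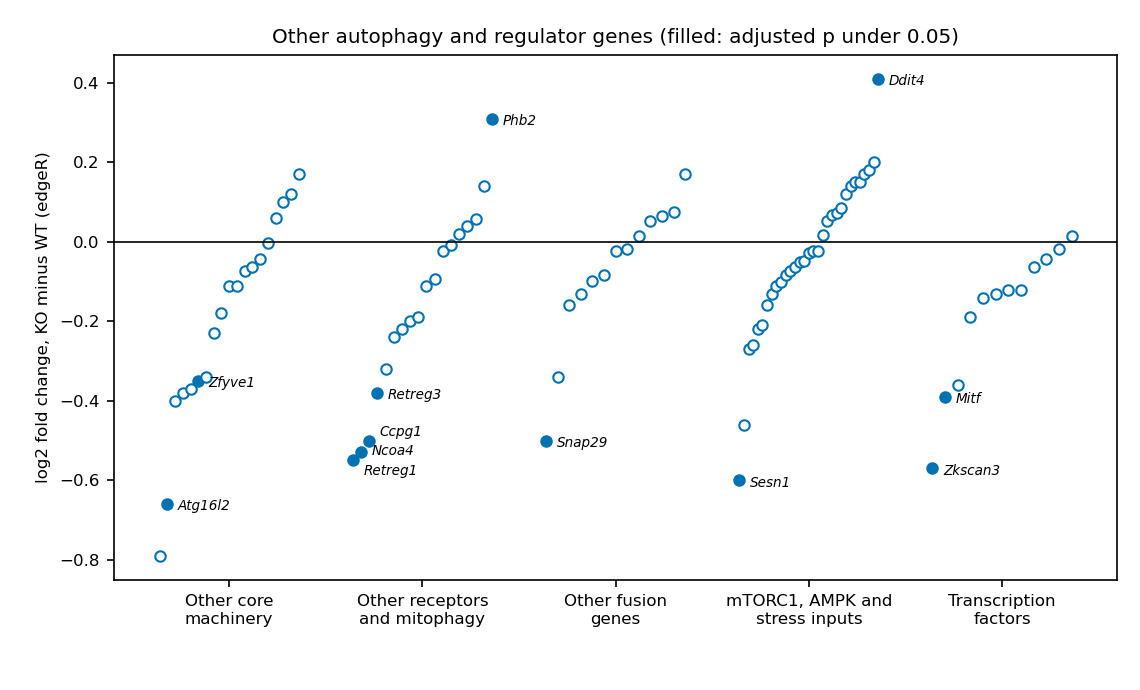
Log2 fold change, KO minus WT, for 93 other autophagy and regulator genes in 5 lists, each point 1 gene, sorted within its list, with filled and named points for genes with an adjusted p under 0.05. The 10 genes called lower include 4 receptors and Snap29, and the 2 called higher are Phb2 and Ddit4.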

How the data were processed

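The authors deposited read counts per gene and FPKM values, 1 column per library for 16266 genes. The deposited FPKM equal counts over a fixed gene length and library total (to 1% in 99.99% of entries with 10 or more counts). Trimming, alignment and counting tools were fastp, HISAT2 and HTSeq, with mm10, per the submitters' processing notes; their versions and strand setting were not given in the sources used here. Libraries were strand-specific total RNA, per the labels' protocols. The test of counts used edgeR 4.0.16 (R 4.3.3; low counts removed by filterByExpr, quasi-likelihood F tests for KO against WT in 6 libraries, TMM scaling), with Benjamini-Hochberg adjustment over 12219 genes. The standard error (SE) is the log2 fold change divided by the square root of F, and 95% intervals use the moderated degrees of freedom. The procedure was tested on simulated counts, drawn without departures of whole libraries such as those of WT replicate 3 and KO replicate 2. That test cannot speak to such departures. Genes listed by library were any called member, the 3 largest differences with a mean CPM of at least 1, and Ulk1, Becn1, Atg5, Atg7, Map1lc3b and Sqstm1, by rule; Atg14, Wipi1, Atg2a, Atg9a, Gabarap, Nbr1, Calcoco1 and Stx17 were added after their values were seen; of the other lists, up to 4 called genes each by smallest p, with Tfeb, Tfe3 and Mtor. Members and lists, markers included, were chosen with earlier results of these data known. Positions and promoters came from RefSeq (GRCm38.p6), shared words, GC content and exons from GENCODE M21 (GRCm38). Alternatives were DESeq2 1.42.0, limma 3.58.1 (voom, and trend on log2 FPKM), other scalings and filters, a length or GC trend removed, a replicate block and libraries left out. One marker result is not reported here.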

Additional observations from a re-analysis of the deposited data

How the results depend on the processing

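The median log2 fold change of the 40 autophagy genes stayed between -0.15 and -0.097 over 19 alternatives. Of 760 single-gene values in these alternatives, 735 kept their side of the threshold and 30 genes were called nowhere; 13 genes changed sign at least once. Members called lower, 1 in edgeR, numbered 3 in DESeq2 (6.88% of all genes were called lower there), 2 with a length trend removed (6.57%), 2 with a GC trend removed (6.04%; chosen after seeing the data) and 0 to 2 with 1 library left out. Without both WT replicate 3 and KO replicate 2 they numbered 8, with 1 called higher (12.3% and 13.7% of all genes there). The gene called higher was Atg2a at 0.41, reversed in sign, against -0.23 to 0.23 with 1 library left out. That fit gave 22 calls in the other lists (12 in the full set) and 3186 among all genes (1790 in the full set). Genotype and the second principal component cannot be told apart in it. With 1 library left out, the other lists gave 1 to 11 calls and all genes 1119 to 1741. Calls among all genes numbered 1706 without WT replicate 3 and 1741 without KO replicate 2. The cause of these differences between fits was not tested. With a replicate block, 7 members were called lower (Atg12, Atg4c, Atg5, Becn1, Calcoco1, Nbr1 and Uvrag), and calls rose among all genes as well, to 1164 lower (9.53%) and 1362 higher. Libraries with the same number are not shown to be paired. Their deviations from the group means had r of -0.10, 0.23 and 0.18. KO replicates 2 and 3 correlated best with the WT library of the same number, and KO replicate 1 with WT replicate 3 (0.26). Members had at least 130 counts in each library, and their median SE was 0.11 in log2 with 3 libraries per group.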
